A study of Mus musculus with 8 samples.

Results

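Voltage-gated calcium channel subunits are described here through 10 genes, Cacna1a, Cacna1b, Cacna1c, Cacna1d, Cacna1e, Cacna1h, Cacnb2, Cacnb3, Cacna2d1 and Cacna2d2, chosen by gene symbol from the 23284 genes of the deposited count tables. All 10 had a row, and all 10 passed the filter on low counts. RNA came from flow-sorted pancreatic cells of mouse embryos at stage E17. All cells carried Neurog3Cre, active in the precursors of every islet cell type, and a RosaTomato reporter switched on by Cre, and the sort took Tomato-positive cells. The strain is labelled C56BL/J. In 4 libraries the genotype was Neurod1floxed/floxed (KO, replicates 8, 9, 17 and 24), so that both alleles of the transcription factor gene Neurod1 could be deleted. In the other 4 it was Neurod1floxed/wt (Het, replicates 6, 7, 13 and 19), so the comparison sets cells that can lose both alleles against cells that can lose a single one, and no group with 2 unmodified alleles is analysed here. Whether the replicates are different animals is not in the labels, and p-values measure the spread between these libraries, which may be technical.

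A voltage-gated calcium channel is built from a pore, the alpha1 subunit, which senses voltage and sets the channel type, a cytosolic beta subunit, which helps bring the pore to the membrane and tunes its gating, and an extracellular alpha2delta subunit, which also aids delivery to the membrane. In islet cells, closure of ATP-sensitive potassium channels depolarises the membrane, these channels open, and the calcium that enters triggers the release of hormone granules. L-type pores (Cacna1c and Cacna1d here) carry long-lasting current, the P/Q-type (Cacna1a), N-type (Cacna1b) and R-type (Cacna1e) pores are best known from nerve terminals, and the T-type pore (Cacna1h) opens near the resting potential.

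Neurod1 stood at 2.55, 12.9, 22.2 and 21.5 CPM (counts scaled to library size after TMM normalization, the usual CPM unit) in KO replicates 8, 9, 17 and 24, and at 133, 138, 141 and 210.5 CPM in Het replicates 6, 7, 13 and 19. The genotypes did not overlap. Library totals ran from 10350040 to 16080392 counts. Summed over 8 pan-endocrine markers (Chga, Chgb, Isl1, Pax6, Scg2, Scg3, Syp and Insm1), the level was 3784 to 7698 CPM in KO and 7690.3 to 8944 CPM in Het, with KO replicate 8 lowest for all 8 markers. All 8 had a log2 fold change of KO over Het below 0, as did 46.6% of all tested genes. Their median was −0.51, and −0.32 without KO replicate 8. The genotypes did not overlap for Isl1, Scg3 and Syp, nor for 8.03% of all tested genes. Syp was called lower with all libraries (adjusted p = 0.0405, edgeR's quasi-likelihood test) and without KO replicate 8. KO replicate 8 also held 9696 CPM of 11 mesenchyme markers, against 239.8 to 1184 CPM in the other 7, and its own values are given beside each result below.

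Of the 10 subunit genes, 1 fell in KO and none rose. It was Cacna1c, the pore of the L-type channel that also carries the calcium current of heart and smooth muscle. Cacna1c stood at 15.7, 21.6, 29.6 and 27.5 CPM in KO replicates 8, 9, 17 and 24 and at 44.6, 49.9, 67.9 and 86.1 CPM in Het replicates 6, 7, 13 and 19. Every KO library lay below every Het library, and KO replicate 8 was the lowest of all. The means were 23.6 ± 6.23 CPM in KO and 62.1 ± 18.8 CPM in Het (SD, n = 4 each), 2.63-fold higher in Het, a log2 fold change of KO over Het of −1.40 (SE 0.27, 95% interval −1.99 to −0.81, adjusted p = 0.0405) by edgeR's quasi-likelihood test with Benjamini-Hochberg adjustment over 14116 genes. Across all tested genes 1.02% were called at an adjusted p under 0.05 and 0.68% were called lower and 0.34% higher in KO, and the libraries of the genotypes did not overlap in 8.03%. Cacna1c was the only one of the 10 whose groups did not overlap and the only one at an unadjusted p under 0.05, a level that 12.2% of all genes reached. DESeq2, which called 3.75% of its genes, and limma-voom, which called 3.54%, also called Cacna1c alone among the 10. In the authors' deposited table Cacna1c had a log2 fold change of −1.40 and an adjusted p of 0.0108, and the other 9 genes had an adjusted p of 1.

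Without KO replicate 8 the log2 fold change of Cacna1c was −1.25 (SE 0.25, adjusted p = 0.0244, edgeR), in a fit that called 1.99% of its genes. Without any other single library the call was lost at adjusted p from 0.0627 to 0.146 (KO replicates 9, 17 and 24 and Het replicates 6, 7, 13 and 19), with log2 fold changes of −1.54 to −1.20 over all 8 omissions. Using every library, the call was kept with a covariate for mesenchyme markers (log2 fold change −1.22, adjusted p = 0.00288, edgeR). It was lost with one for acinar markers (adjusted p = 0.0762), Y-linked genes (0.176) or the pan-endocrine markers. The last of these moved the log2 fold change to −0.92 (adjusted p = 0.139). The sex of the embryos is not in the labels. All 8 pan-endocrine markers had log2 fold changes below 0, so the pan-endocrine covariate and the genotype cannot be fully told apart. The 7 acinar markers tested had a median of 0.14, and none had an unadjusted p under 0.05 in edgeR. The part of either cell content in the Cacna1c result was not tested.

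Hormone-cell markers did not all move with Cacna1c. Over all tested genes edgeR called 0.68% lower and 0.34% higher, 12.2% had an unadjusted p under 0.05, and groups did not overlap in 8.03%. DESeq2 called 3.75% of its genes, limma-voom 3.54% and the edgeR fit without KO replicate 8 1.99%, in either direction. Of 7 beta-cell markers, 3 were called lower (Ins1, Ins2 and G6pc2), Iapp and Mafa also had groups that did not overlap, and Nkx6-1 (0.24) and Slc2a2 (0.098) had log2 fold changes above 0. DESeq2 also called Iapp and Mafa lower, and limma-voom called the same 3 as edgeR. The beta-cell sum, most of it Ins1, Ins2 and Iapp, was 6281 to 13282 CPM in KO and 26894 to 48967 CPM in Het. Of 6 alpha-cell markers, all 6 had log2 fold changes below 0 and edgeR called 2 lower (Gcg and Irx1). Irx2 also had groups that did not overlap (log2 fold change −1.10, adjusted p = 0.0539 by edgeR). DESeq2, limma-voom and the edgeR fit without KO replicate 8 called Irx2 lower as well. The sum of the 6, most of it Gcg, was 14891 to 25295 CPM in KO and 34785 to 35735 CPM in Het. Of 4 delta-cell markers, edgeR called none, 2 had an unadjusted p under 0.05 (Ghsr and Rbp4, both lower), DESeq2 and limma-voom each called Ghsr lower, and the sum was 1649 to 3415 CPM in KO and 3048 to 4259 CPM in Het. In these bulk libraries, fewer cells of a type and less Cacna1c RNA per cell cannot be told apart. Smooth-muscle and pericyte markers, which mark another cell type that uses this pore, summed to 15.2 to 218 CPM in KO and 10.7 to 97.2 CPM in Het, with none of the 7 called by edgeR, DESeq2 or limma-voom and 2 (Rgs5 and Cspg4, both highest in KO replicate 8) at an unadjusted p under 0.05. KO replicate 8 was the highest library by their sum and the lowest for Cacna1c. The log2 fold changes of all 5 leukocyte markers were above 0 (median 2.76, and 1.64 without KO replicate 8), with sums of 12.1 to 388 CPM in KO and 13.6 to 53.5 CPM in Het. EdgeR called none of them, 2 had an unadjusted p under 0.05 (Csf1r and Tyrobp), limma-voom called none, and DESeq2 called Csf1r higher. Of 6 endothelial markers, 4 were tested and Cldn5 was called higher by all 3 tools, at 3.22 CPM in KO and 0.204 CPM in Het on average. The part of these cell types in the Cacna1c result was not tested.

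Neurod1 is a basic helix-loop-helix factor, a class that binds the E-box CANNTG, so the start-site windows of Cacna1c and of its L-type relative Cacna1d are shown as the deposited counts cannot tell which start a transcript used. Each window is the RefSeq sequence on GRCm38.p6 from 250 bases before to 50 bases after an annotated start, minus strand, 5′ to 3′, with CANNTG matches in capitals. The Cacna1c windows lie at chr6:119196360-119196659, chr6:119108446-119108745 and chr6:118757925-118758224 and the Cacna1d windows at chr14:30491107-30491406 and chr14:30353437-30353736.
Cacna1c window 1: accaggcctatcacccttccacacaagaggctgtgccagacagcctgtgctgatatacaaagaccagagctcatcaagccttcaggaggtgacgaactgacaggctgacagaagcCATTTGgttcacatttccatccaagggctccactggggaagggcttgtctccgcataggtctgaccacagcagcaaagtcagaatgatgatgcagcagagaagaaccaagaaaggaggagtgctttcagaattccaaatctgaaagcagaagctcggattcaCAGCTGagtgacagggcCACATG
Cacna1c window 2: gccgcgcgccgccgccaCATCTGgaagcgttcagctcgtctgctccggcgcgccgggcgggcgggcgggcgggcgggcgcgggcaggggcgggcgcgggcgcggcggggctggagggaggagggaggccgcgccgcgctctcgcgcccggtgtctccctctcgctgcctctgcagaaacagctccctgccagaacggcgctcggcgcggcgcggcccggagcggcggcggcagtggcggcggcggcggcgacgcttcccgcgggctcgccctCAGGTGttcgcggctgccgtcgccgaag
Cacna1c window 3: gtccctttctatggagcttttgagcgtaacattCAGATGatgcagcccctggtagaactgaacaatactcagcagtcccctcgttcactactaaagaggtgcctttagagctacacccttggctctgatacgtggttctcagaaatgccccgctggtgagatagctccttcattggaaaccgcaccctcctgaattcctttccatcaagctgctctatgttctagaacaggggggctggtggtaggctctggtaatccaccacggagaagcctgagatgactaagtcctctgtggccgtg
Cacna1d window 1: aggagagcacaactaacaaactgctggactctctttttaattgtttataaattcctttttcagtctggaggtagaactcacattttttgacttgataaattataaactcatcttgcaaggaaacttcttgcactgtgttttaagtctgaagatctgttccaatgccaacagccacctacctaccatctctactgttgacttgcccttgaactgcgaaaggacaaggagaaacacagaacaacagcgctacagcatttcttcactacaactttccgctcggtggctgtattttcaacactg
Cacna1d window 2: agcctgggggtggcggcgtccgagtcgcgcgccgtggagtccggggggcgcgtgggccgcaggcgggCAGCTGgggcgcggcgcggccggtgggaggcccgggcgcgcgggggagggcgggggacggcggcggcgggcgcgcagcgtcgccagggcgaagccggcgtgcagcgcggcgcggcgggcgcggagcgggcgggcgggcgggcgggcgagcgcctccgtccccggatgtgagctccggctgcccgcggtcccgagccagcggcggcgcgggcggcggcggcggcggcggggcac

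The Cacna1c windows held 3, 2 and 1 matches to CANNTG, which reads the same on both strands in this form, and the Cacna1d windows 0 and 1. The narrower form CAGATG, or CATCTG on the other strand, which is contained in CANNTG, was present in Cacna1c windows 2 and 3 and in neither Cacna1d window. Of all 32851 windows of this length, 72.3% held CANNTG and 17.2% held CAGATG on either strand. RefSeq windows were matched for 8 of the 10 genes (13 windows), and 8 of those windows held CANNTG and 4 held CAGATG. Besides Cacna1c, the CAGATG matches were in windows of Cacnb2 and Cacnb3. A match is a string of letters in these windows and no measure of binding.

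Cacna1d, the other L-type pore gene here, encodes a channel that opens at more negative potentials. It stood at 75.7, 103, 129 and 124 CPM in KO replicates 8, 9, 17 and 24 and at 92.1, 93.5, 151 and 149 CPM in Het replicates 6, 7, 13 and 19. The genotypes overlapped, with a log2 fold change of −0.17 (SE 0.23, 95% interval −0.67 to 0.33, adjusted p = 0.815) by edgeR. Set against Cacna1d within each library, which no library scaling can alter, Cacna1c gave 0.208, 0.209, 0.229 and 0.221 counts per Cacna1d count in KO replicates 8, 9, 17 and 24 and 0.484, 0.534, 0.450 and 0.578 in Het replicates 6, 7, 13 and 19. The ratio was thus 0.217 ± 0.0102 in KO and 0.512 ± 0.0563 in Het (SD, n = 4 each), the groups did not overlap, and KO replicate 8 lay within 0.208 to 0.229, the range of the KO group, as its lowest value. The pair was chosen for this ratio after the values of both genes were seen, so it is given as a description with no test.

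The make-up of the alpha1 transcripts is shown next, also as a description. Of all counts of the 6 alpha1 genes, Cacna1c took 5.14% to 7.81% in KO and 14.1% to 15.3% in Het. Cacna1a took 25.1% to 42.5% and 28.9% to 41.1%, and Cacna1d 24.5% to 37.5% and 26.4% to 33.0%. The ranges of these pores overlapped between genotypes, and those of Cacna1c did not. These are shares of counts, not of channels, since counts grow with transcript length and the protein was not measured.

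**Figure D1:**
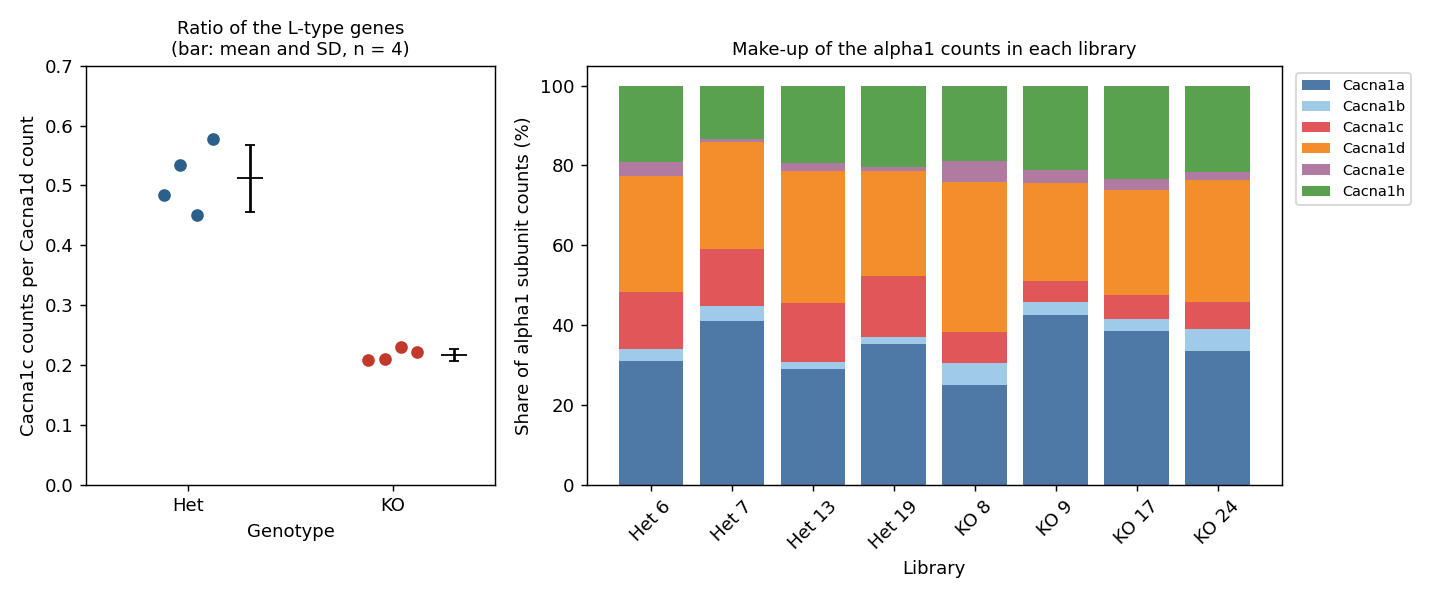
Left, counts of Cacna1c per count of Cacna1d in each library, with points for libraries and a bar for the mean ± SD of 4. Right, the share of the counts of 6 alpha1 genes taken by each gene (%), one stacked bar per library. The 4 KO ratios lie between 0.208 and 0.229, below all Het ratios, and the Cacna1c segment is at most 7.81% in KO.

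Cacna1a is the P/Q-type pore, which in nerve endings opens to release transmitter. It stood at 50.6, 179, 189 and 137 CPM in KO replicates 8, 9, 17 and 24 and at 98.1, 144, 132 and 198 CPM in Het replicates 6, 7, 13 and 19. The genotypes overlapped over most of their range, and KO replicate 8 was far below the rest. Its log2 fold change was −0.045 (SE 0.36, 95% interval −0.84 to 0.75, adjusted p = 0.977) by edgeR, and 0.22 (95% interval −0.24 to 0.68) without KO replicate 8. The sign also turned without Het replicate 19 (0.15) and, with all 8 libraries, under other settings given in the closing section. Cacna1b, the N-type pore, stood at 10.8, 14.04, 15.2 and 22.9 CPM in KO and 9.50, 13.2, 8.48 and 10.2 CPM in Het, in the same order of libraries. Its KO mean was above its Het mean, but the genotypes overlapped, with a log2 fold change of 0.60 (SE 0.30, 95% interval −0.068 to 1.27, adjusted p = 0.459). Without KO replicate 8 it was 0.73 (95% interval 0.095 to 1.37, unadjusted p = 0.0277, adjusted p = 0.271, edgeR), and without KO replicate 24, its highest library, 0.35. Cacna1e, the R-type pore, stood at 10.8, 13.9, 13.6 and 8.36 CPM in KO and 10.6, 2.47, 9.36 and 5.58 CPM in Het, where Het replicate 7 was the lowest library. Its log2 fold change was 0.74 (SE 0.44, 95% interval −0.24 to 1.72, adjusted p = 0.536), and without Het replicate 7 it was 0.45 (adjusted p = 0.710).

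Cacna1h, the T-type pore, stood at 38.0, 89.2, 115 and 88.1 CPM in KO replicates 8, 9, 17 and 24 and at 60.6, 46.9, 88.2 and 115 CPM in Het replicates 6, 7, 13 and 19. Both groups spread widely and overlapped, and KO replicate 8 was the lowest library. The log2 fold change was 0.088 (SE 0.35, 95% interval −0.68 to 0.85, adjusted p = 0.948) by edgeR, and 0.32 (95% interval −0.24 to 0.88) without KO replicate 8. It was below 0 without KO replicate 17 (−0.13), Het replicate 6 (−0.015) or Het replicate 7 (−0.093). Its means were 82.5 ± 32.05 CPM in KO and 77.7 ± 30.2 CPM in Het (SD, n = 4 each).

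The beta subunit genes did not pass the test. Cacnb2 stood at 28.6, 61.5, 63.8 and 72.6 CPM in KO replicates 8, 9, 17 and 24 and at 52.1, 68.9, 82.9 and 89.4 CPM in Het replicates 6, 7, 13 and 19. KO replicate 8 lay apart at the low end and the other KO libraries fell inside the Het range. The log2 fold change was −0.37 (SE 0.28, 95% interval −0.99 to 0.25, adjusted p = 0.630) by edgeR, and −0.16 (95% interval −0.58 to 0.26) without KO replicate 8. Cacnb3 stood at 33.9, 28.3, 35.4 and 42.0 CPM in KO and 37.1, 32.1, 27.5 and 34.8 CPM in Het, in the same order. Its libraries lay close together in both genotypes, with a log2 fold change of 0.086 (SE 0.18, 95% interval −0.32 to 0.49, adjusted p = 0.897), and KO replicate 8 lay inside the range of the other libraries.

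Both alpha2delta genes encode the binding sites of the gabapentin class of drugs. Cacna2d1 stood at 176, 297, 299 and 285 CPM in KO replicates 8, 9, 17 and 24 and 229.7, 259, 293 and 321 CPM in Het replicates 6, 7, 13 and 19. KO replicate 8 was low, the other 3 KO libraries sat close together, and those 3 lay inside the Het range. The log2 fold change was −0.060 (SE 0.19, 95% interval −0.48 to 0.36, adjusted p = 0.932) by edgeR, and 0.082 (95% interval −0.22 to 0.39) without KO replicate 8. It was also above 0 without Het replicate 19 (0.013) and, with all 8 libraries, with the mesenchyme covariate (0.050). Cacna2d2 stood at 3.50, 9.89, 14.6 and 11.2 CPM in KO and 6.80, 5.75, 5.21 and 9.43 CPM in Het, in the same order. The log2 fold change was 0.53 (SE 0.44, 95% interval −0.45 to 1.51, adjusted p = 0.667), and without KO replicate 8 it was 0.80 (95% interval 0.061 to 1.55, unadjusted p = 0.0361, adjusted p = 0.306, edgeR).

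**Figure D2:**
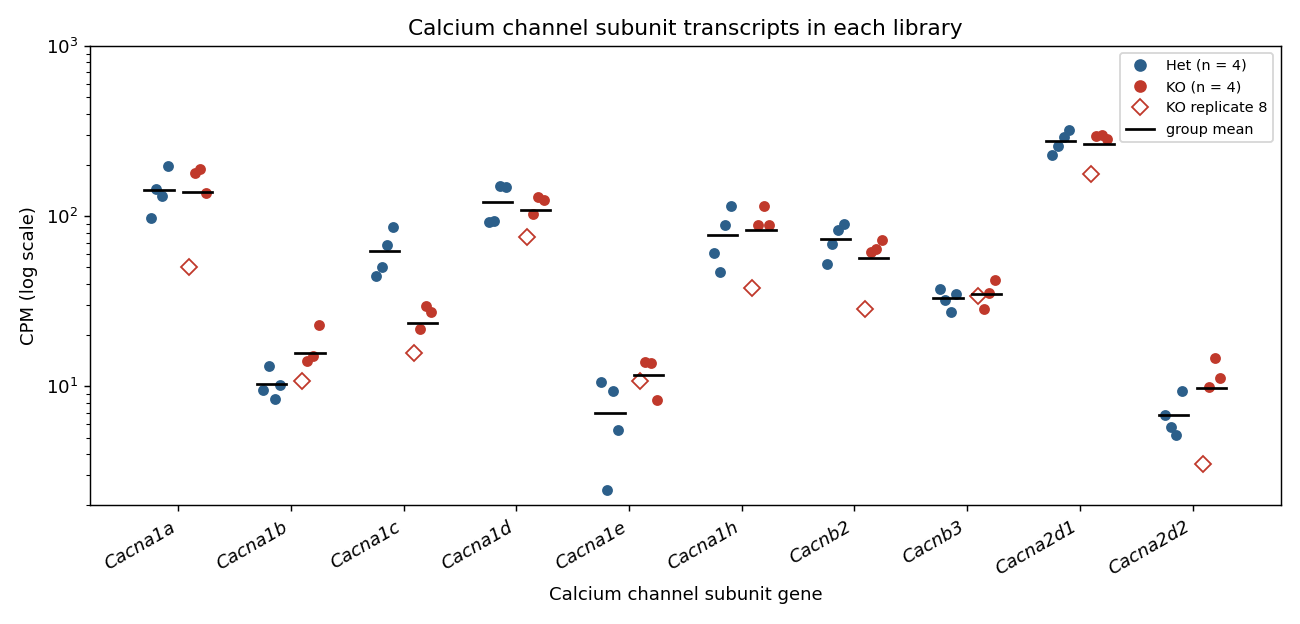
CPM of each gene (log axis) in every library, Het in blue and KO in red, with KO replicate 8 as an open diamond and group means as black lines (n = 4 each). Cacna1c is the gene whose KO points all lie below its Het points, from 15.7 to 29.6 CPM against 44.6 to 86.1 CPM.

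The log2 fold changes of the 10 genes had a median of 0.020, beside 0.033 for all genes tested, with 5 below and 5 above 0. For 7 of the 10 the lowest library was KO replicate 8, and it was the highest for none. Over all tested genes it was lowest in 20.9% and highest in 22.7%. Without it the median of the 10 was 0.16 and Cacna1c alone was called. No median over all genes was computed for that fit, so the list medians without KO replicate 8 have none beside them. Its summed level of the 10 genes was 443 CPM, against 817 to 904 CPM in the other KO libraries and 641 to 1019 CPM in Het. The part of its low endocrine and high mesenchyme markers in this was not tested.

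**Figure D3:**
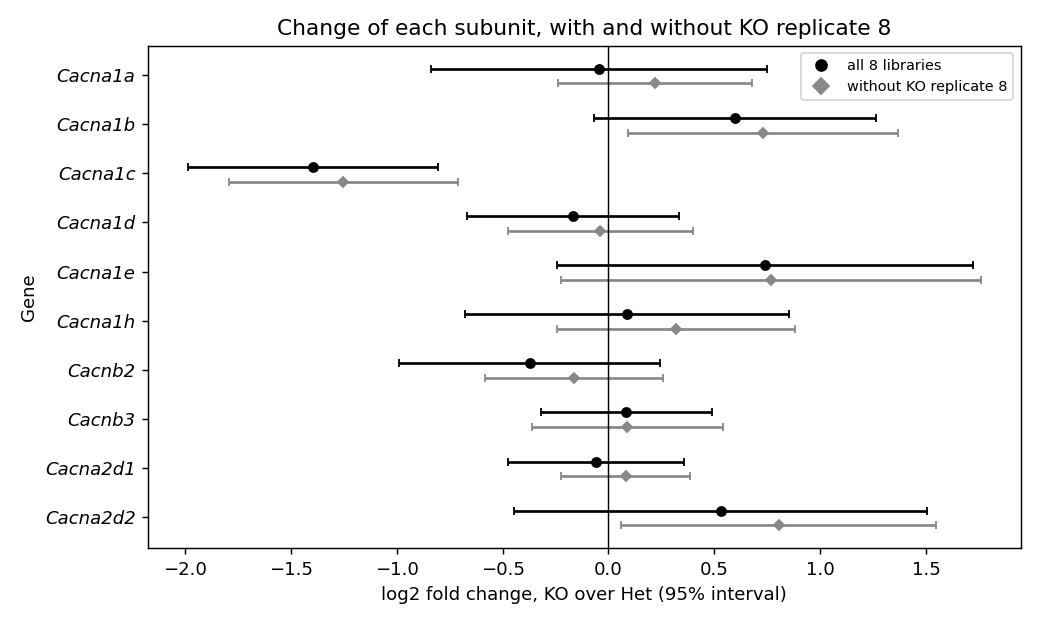
Log2 fold change of KO over Het for each gene with its 95% interval, from all 8 libraries (black circles) and without KO replicate 8 (grey diamonds). The interval of Cacna1c, −1.99 to −0.81, lies below 0, and with all 8 libraries each of the other 9 intervals spans 0.

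To compare levels between genes, CPM was divided by the length of the merged exons of each gene in GENCODE release M21 on GRCm38, whereas the submitters' notes name mm9 for the counts. Cacna2d1 was highest at 32.2 ± 5.62 CPM per kb (mean ± SD over all 8 libraries here and below). Cacna1a (17.8 ± 6.24), Cacnb2 (13.5 ± 3.91), Cacna1d (12.8 ± 3.09), Cacnb3 (11.4 ± 1.58) and Cacna1h (9.72 ± 3.51) followed, and within this run no neighbours differed by more than the larger of their SDs. Cacna1c (2.82 ± 1.60), Cacna2d2 (1.42 ± 0.628) and Cacna1b (1.33 ± 0.472) formed a lower run, in which the SD of Cacna1c includes the gap between genotypes, and Cacna1e (0.612 ± 0.254) was lowest. The steps beyond the spread were those from Cacna2d1 to Cacna1a, from Cacna1h to Cacna1c and from Cacna1b to Cacna1e, each in the same direction in all 8 libraries. The merged length counts every annotated exon and can exceed that of the transcripts present, so this order is approximate. By mean CPM alone these steps kept their direction. Other places changed, with Cacna1c (42.9) above Cacnb3 (33.9) and Cacna1e (9.33) above Cacna2d2 (8.30). By genotype, Cacna1c stood at 1.55 ± 0.409 CPM per kb in KO and 4.08 ± 1.24 in Het (SD, n = 4 each). Its place in the order differed between genotypes. In Het its lowest library (2.93) stood above every Het library of Cacna2d2 (1.17 ± 0.321) and Cacna1b (1.06 ± 0.209). In KO its mean lay below those of Cacna2d2 (1.68 ± 0.799) and Cacna1b (1.61 ± 0.525), by less than the SDs. In this annotation Cacna1a, Cacna1d, Cacna1h, Cacnb2 and Cacna2d2 share some exonic bases with a gene on the opposite strand. The kit does not keep strand, so reads from those stretches cannot be assigned to either gene, and Cacna1c shares none.

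A further 16 genes are named as subunits of the family, of which 8 passed the filter on low counts. None of these was called by edgeR, DESeq2 or limma-voom, and 1 had an unadjusted p under 0.05 in the edgeR fit, a level that 12.2% of all genes reached. Cacna1g, a T-type pore, stood at 46.5, 5.11, 2.41 and 3.41 CPM in KO replicates 8, 9, 17 and 24 and at 3.48, 5.25, 3.89 and 2.64 CPM in Het replicates 6, 7, 13 and 19. The high value belonged to KO replicate 8 alone, the library high in mesenchyme markers, whose part in it was not tested, and the log2 fold change was 1.91 (adjusted p = 0.414) (edgeR). Cacna2d3, an alpha2delta gene, stood at 2.48, 12.0, 3.997 and 4.04 CPM in KO and 1.16, 0.804, 2.03 and 2.74 CPM in Het, highest in KO replicate 9, with a log2 fold change of 1.75 (adjusted p = 0.300). The log2 fold changes of the others were 0.60 (adjusted p = 0.660) for the beta subunit gene Cacnb1 and −0.29 (adjusted p = 0.818) for Cacnb4. They were 0.22 (adjusted p = 0.909) for Cacna2d4, −1.14 (adjusted p = 0.703) for the T-type pore Cacna1i, and −0.051 (adjusted p = 0.991) and 0.90 (adjusted p = 0.680) for Cacng4 and Cacng5 of the gamma family. Mean levels of all 8 were 1.04 to 9.08 CPM. The L-type pores of retina and skeletal muscle, Cacna1f and Cacna1s, with Cacng2, Cacng3, Cacng7 and Cacng8, did not pass the filter, and Cacng1 and Cacng6 had no count in any library.

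Of 20 genes for proteins that tie the channels to granules or drive release, 17 were tested. EdgeR called 1 higher in KO and none lower, beside 0.34% higher and 0.68% lower over all tested genes. The median log2 fold change was −0.018. In 12 of the 17 genes KO replicate 8 had the lowest level (20.9% over all tested genes), and without it the median was 0.20. The riser was Rims3, a short member of the RIM family of release-site proteins, which bind the channel's beta subunit. Rims3 stood at 7.80, 17.2, 15.5 and 11.6 CPM in KO replicates 8, 9, 17 and 24 and at 3.78, 3.83, 2.91 and 4.36 CPM in Het replicates 6, 7, 13 and 19. All KO libraries lay above all Het libraries, and the log2 fold change was 1.804 (SE 0.35, 95% interval 1.02 to 2.59, adjusted p = 0.0440) by edgeR. Without KO replicate 8 it was 1.97 (adjusted p = 0.0112). It lost the call without any other single library (KO replicates 9, 17 and 24 and Het replicates 6, 7, 13 and 19, adjusted p up to 0.164), when low-count genes were kept (0.0553), and under the acinar (0.0779) or Y-linked (0.139) covariate.

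Of 19 modulators of the channels, 15 were tested and edgeR and limma-voom called none. In edgeR 3 (Camk2b, Rem2 and Rrad) had an unadjusted p under 0.05 (12.2% of all genes). The median log2 fold change was 0.12 (−0.045 without KO replicate 8). DESeq2, which called 3.75% of its genes, called Camk2b lower. Camk2b, a calmodulin-dependent kinase that phosphorylates channel subunits, stood at 60.3, 84.2, 134 and 131 CPM in KO replicates 8, 9, 17 and 24 and at 167, 173, 176 and 205 CPM in Het replicates 6, 7, 13 and 19. All KO libraries lay below all Het libraries, with KO replicate 8 lowest, and the log2 fold change was −0.81 (adjusted p = 0.176) by edgeR. Rem2, a small G-protein of the family that binds beta subunits and inhibits the current, stood at 5.68, 16.99, 15.6 and 16.1 CPM in KO and 30.6, 25.6, 18.0 and 20.8 CPM in Het. Its groups did not overlap either, with a log2 fold change of −0.81 (adjusted p = 0.383). Rem2 and Rrad, another inhibitor of that family, complete the 3 tested modulators whose groups did not overlap (8.03% of all tested genes). This pair was named after its values were seen. Rrad went the other way from Camk2b and Rem2, with every KO library above every Het library (log2 fold change 3.94, adjusted p = 0.267, edgeR). Among the modulators that did not pass the filter, Cabp1 lay lower in every KO library (at most 0.291 CPM) than in any Het library (at least 0.353 CPM), from at most 16 counts in a library. Rrad had its highest level, 11.4 CPM, in KO replicate 8, and at most 1.06 CPM elsewhere.

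Of 14 genes of voltage-gated sodium channels and the related leak channel, which help depolarise islet cells, 9 were tested. None was called by edgeR, DESeq2 or limma-voom, 1 had an unadjusted p under 0.05 in edgeR, and the median log2 fold change was 0.21. That gene was Scn9a, a sodium channel pore, at 22.4, 51.4, 42.0 and 43.9 CPM in KO replicates 8, 9, 17 and 24 and 62.8, 57.0, 60.2 and 55.5 CPM in Het replicates 6, 7, 13 and 19. Its KO libraries lay below its Het libraries, with KO replicate 8 lowest (log2 fold change −0.56, adjusted p = 0.366). Of 16 genes of calcium-dependent transcription, which include calcineurin, NFAT and immediate-early genes, all 16 were tested and edgeR called none, with 2 (Nfatc1 and Nfatc2) at an unadjusted p under 0.05, a median of 0.25, 12 above 0 and 4 below 0. Over all tested genes, 12.2% reached an unadjusted p under 0.05 in edgeR and 46.6% had log2 fold changes below 0. KO replicate 8 was the highest library for 7 of the 16 (22.7% over all tested genes), and without it the median was 0.072. DESeq2 and limma-voom, which called 3.75% and 3.54% of their genes, both called Nfatc1 higher. Nfatc1, a transcription factor that calcineurin activates, stood at 57.1, 57.0, 52.6 and 50.04 CPM in KO and 42.9, 25.4, 28.8 and 33.5 CPM in Het, and its groups did not overlap (log2 fold change 0.73, adjusted p = 0.123 by edgeR). The immediate-early genes Egr1, Fos, Nr4a1 and Junb, named after their values were seen, were each highest in KO replicate 8, at 2731, 649, 168 and 57.8 CPM. They stood at no more than 1154, 368, 49.2 and 30.7 CPM in the other 7 libraries. Another immediate-early gene, Npas4, was highest in Het replicate 19, at 12.2 CPM, against 5.68 CPM in KO replicate 8.

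**Figure D4:**
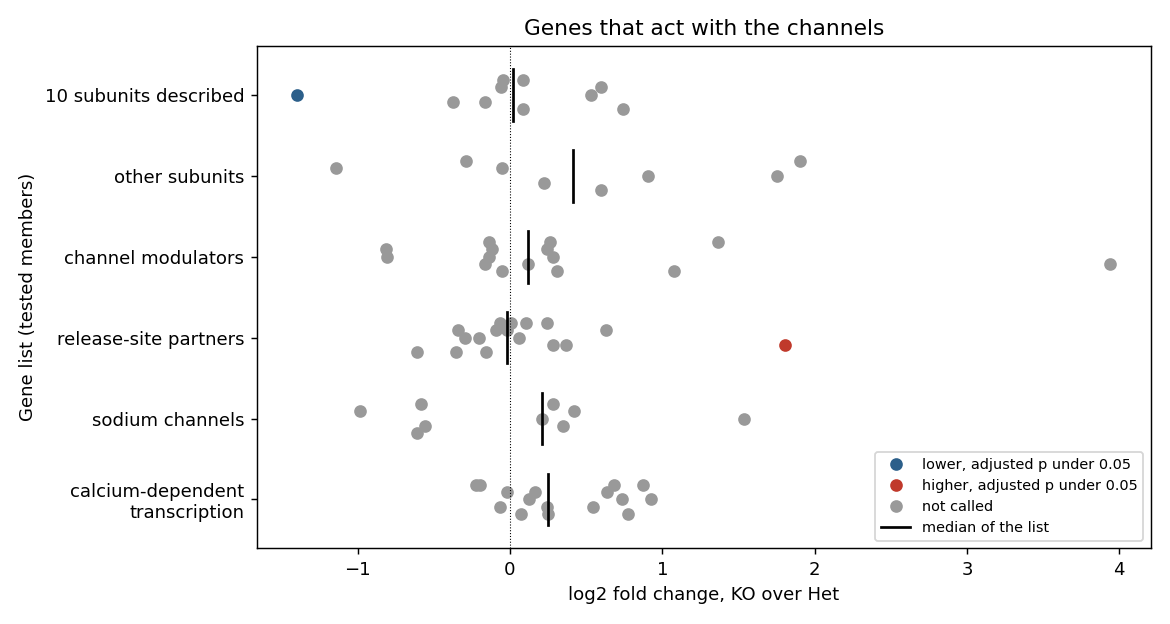
Log2 fold change of KO over Het for the tested genes of the 10 subunits and of 5 related lists, one point per gene, with the list's median as a black line. Cacna1c at −1.40 is the called fall and Rims3 at 1.804 the called rise, and the medians of all lists lie between −0.018 and 0.41 (without KO replicate 8, which the plot includes, between −0.045 and 0.30).

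By Pearson's correlation of log2 CPM over the 8 libraries, among 9704 candidates whose mean reached 8 CPM, the genes most like Cacna1c were Dnahc9 (0.990), Phf16 (0.986), Mdm1 (0.985), Epb4.1l3 (0.979) and Ins1 (0.974). Of these 5, 4 were themselves called lower in KO, beside 0.68% of all tested genes. Their log2 fold changes were −2.05 for Dnahc9, −1.03 for Phf16, −0.95 for Mdm1 and −3.64 for Ins1. Epb4.1l3 was not called (adjusted p = 0.0822, edgeR). Cacna1c itself was called lower, so genes picked for likeness to it tend to share its fall, and the count is no separate result. The genes most like Cacna2d1, the member with the highest mean, were Spef1 (0.992), Rcor2 (0.986), Gprasp2 (0.980), Cadps (0.978) and Fev (0.977), none of them called. These are descriptions over 8 libraries that share their genotype split and, for Cacna2d1, a low value in KO replicate 8, and they carry no test.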

How the data were processed

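Per the labels' protocols, RNA with a RIN above 8 was amplified with a NuGen Ovation V2 kit and sequenced on a HiSeq2000 as single-end reads. The submitters' processing notes name mm9 and, with no roles, DESeq, Cufflinks 2.0.2, TopHat2 2.1.0 and bcl2fastq 1.8.4. The counter and gene annotation, not given in the sources used here, could shift counts of overlapping genes. The deposited values are whole-number counts per gene symbol, not normalized. The authors also deposited their own comparison, with group means of normalized signal, a fold change (ratio), its log2, p-values and adjusted p-values, per the file headers.

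Counts were fitted with edgeR 4.0.16 (R 4.3.3) by the quasi-likelihood F test, two-sided, without covariates, on TMM-scaled libraries, with filterByExpr (minimum count 10, total 15) keeping 14116 of 23284 genes. P-values were adjusted by Benjamini-Hochberg over all of these. SEs are the log2 fold change over the root of F. The fit was tested on simulated data, where changes were placed in genes with high counts. It called 36% of the genes changed by a log2 fold change of 1 in either direction, and 84% of those changed by 2. A gene that was not called may therefore still have changed. Alternatives used DESeq2 1.42.0, limma 3.58.1 (voom with quality weights), other scalings and filters, each library left out, and a covariate of the mean log2 CPM of mesenchyme, acinar, pan-endocrine or Y-linked genes, the last pair chosen after seeing the data. The members and lists were chosen with earlier results of these data known. The rule for named genes was all 10 members, every tested subunit of the family, and from each other list the called genes or the gene with the smallest p, and the 5 genes most correlated with the member of smallest p and with that of highest mean. Replicate numbers are not shared between genotypes. No 2 libraries held identical values.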

Additional observations from a re-analysis of the deposited data

Results flagged for a closer look

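Within groups of 4, a library was marked where its gap to the nearest other, as a share of the group's range, exceeded Dixon's 95% critical value, in 36 groups (18 subunit genes in each genotype). Chance marks about 1 in 20 such groups, and 3 were marked. Cacna2d1 in KO was 176 CPM in replicate 8, against 285 to 299 CPM in the other KO libraries. Cacna1g in KO was 46.5 CPM in replicate 8, against 2.41 to 5.11 CPM. Cacna2d3 in KO was 12.0 CPM in replicate 9, against 2.48 to 4.04 CPM. KO replicate 8 had the highest mesenchyme and lowest pan-endocrine marker sums of the 8 libraries, and their part in these values was not tested.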

How the results depend on the processing

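Cacna1c kept a negative log2 fold change in all 18 alternatives (−1.54 to −0.92) and lost its call in 10. The number of the 10 genes called went from 1 to 0 with the acinar covariate, and, in alternatives chosen after seeing the data, with the pan-endocrine and the Y-linked covariate (0 each). Leaving out 1 library gave 0 to 1, with 1 only without KO replicate 8. No alternative called any of the other 9. Over all genes, calls went from 144 to 520 (DESeq2) and 500 (limma-voom with quality weights), to 553 with the mesenchyme covariate, 90 with the acinar, 226 with the pan-endocrine and 28 with the Y-linked covariate, and leaving out 1 library gave 29 to 285. The cause was not tested. Signs changed for 6 of the other 9 genes, none of them called. Cacna1a was 0.014 by total counts, 0.072 by limma-voom, 0.11 with the mesenchyme, 0.81 with the pan-endocrine and 0.084 with the Y-linked covariate, and −0.25 to 0.22 with 1 library left out. Cacna2d1 was 0.050, 0.32 and 0.028 with the mesenchyme, pan-endocrine and Y-linked covariates and −0.14 to 0.082 with 1 library left out. Cacna1d was 0.22 and 0.044 with the pan-endocrine and Y-linked covariates, and Cacnb2 0.24 with the pan-endocrine covariate. With 1 library left out, Cacna1h ran from −0.13 to 0.33 and Cacnb3 from −0.031 to 0.17. Without a change of sign, the pan-endocrine covariate moved Cacna2d2 from 0.53 to 1.44, Cacna1b from 0.60 to 1.02 and Cacna1h from 0.088 to 0.80, and the Y-linked covariate moved Cacna1e from 0.74 to 1.39. At the depth of these libraries 1 CPM stood for 9.86 to 16.2 counts. No paired analysis was possible because KO and Het share no replicate numbers.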
